A study of Homo sapiens with 12 samples.

Results

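Replicate number 1 was compared with replicate numbers 2 and 3 in human HEK 293T cells, an embryonic kidney line that carries a viral large T antigen and is readily transduced. The members were chosen by the number that ends each library's name: 3 libraries numbered 1 against 6 libraries numbered 2 or 3, so that 9 of the 12 libraries of the series were used. The study sequenced poly(A) RNA 72 h after lentiviral transduction, with the stated purpose of finding transcripts that depend on lysosomal RNA uptake by SIDT2. Its 3 hairpin groups each gave 1 library to number 1 and 1 each to numbers 2 and 3: cells with a scramble control hairpin, cells with the SIDT2 hairpin shRNA-B, and cells with the SIDT2 hairpin shRNA-D. All 9 cultures had therefore been transduced with a hairpin lentivirus, were grown in a high-glucose medium with pyruvate, glutamine and serum, and were collected at the same hour, so neither treatment nor time separates number 1 from the others in the labels. The labels do not say what libraries of the same number share (a day, a passage, a plate or nothing), and no untransduced culture was compared. If a number marks a shared batch, 1 batch is compared here with 2, and the p-values below measure only the spread between these libraries.

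Cells sense oxygen through prolyl hydroxylases (EGLN enzymes), which use oxygen to mark the HIF-alpha proteins for destruction through VHL. When oxygen is scarce, HIF escapes this mark, pairs with ARNT and binds short promoter elements with the core letters ACGTG or GCGTG, which raises genes for glucose uptake, glycolysis and vessel growth and genes that divert pyruvate from mitochondria. The integrated stress response works through another route, in which kinases that sense amino acid shortage, unfolded protein or viral RNA slow translation and favour ATF4, a factor that raises amino acid synthesis and transport genes. The immediate early genes, such as FOS, EGR1 and MYC, follow growth factors and stress within minutes to hours.

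The targeted gene SIDT2 checked the labels and did not separate the numbers: the number 1 libraries held 21.7, 6.61 and 5.505 CPM in the scramble, shRNA-B and shRNA-D groups, and the difference of number 1 from the others was -0.08 ± 0.14 on the log2 scale (adjusted p = 0.725, Benjamini-Hochberg, from edgeR's quasi-likelihood test). Library totals were 82311749 to 95051040 estimated counts in the number 1 libraries and 68736977 to 89915764 in the others. After thinning to equal totals, 24221 to 24944 genes had at least 10 counts in the number 1 libraries and 22965 to 24228 in the others, and the TMM scaling factors were 1.027 to 1.071 against 0.9389 to 1.035. These differences in library makeup move with the number, and their part in the results below was not tested. Deviations from the hairpin group means correlated across genes with r of 0.393 to 0.418 between libraries numbered 1, 0.0752 to 0.182 between libraries numbered 2 and 0.0963 to 0.190 between libraries numbered 3. Between libraries of different hairpin groups the same r was -0.265 to -0.175 for number 1 with 2 or 3 and 0.0135 to 0.187 for number 2 with 3. Pairs within a hairpin group, where deviations from a mean of 3 libraries force r below 0, are left out of these ranges. They describe genes that share libraries and depth.

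Of 29939 tested genes, 3267 (10.9%) were higher and 3584 (12%) lower in the number 1 libraries at an adjusted p under 0.05 by the quasi-likelihood test of edgeR with hairpin group as a covariate, 6851 (22.9%) in all. A difference of over 2-fold was found for 850 of the higher and 382 of the lower genes. The shares differed with the level of the gene. Under 1 CPM 8.38% were higher and 2.36% lower, and at 20 to 100 CPM 10% and 22.6%. At 100 CPM and over they were 5.56% and 24.8%. In a model with 3 levels of number, where number 1 against the mean of the others gave 8184 calls, numbers 2 and 3 differed from each other at 2 genes (0.00668%), 1 in each direction, with 4263 genes at an unadjusted p under 0.05. That count was 386 without scramble library 2, 6 without shRNA-B library 2, and 0 without scramble or shRNA-B library 3. The split of the calls depended on the scaling: 47.7% of calls were higher with TMM, 65.1% with upper-quartile scaling (4581 higher, 2457 lower) and 70% with library totals alone (4797 higher, 2054 lower). With library totals alone the median log2 difference of all genes moved from 0.02 to 0.13. The count of calls fell to 4173 without scramble library 1, to 3799 without shRNA-B library 1 and to 3487 without shRNA-D library 1.

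Among the single genes that averaged 5 CPM or more, the ranking by fold change was led on the lower side by ATF3, NDRG1, ASNSP1 (a pseudogene of ASNS, -2.10 ± 0.15), FOS and BHLHE40, which are described with their groups below. On the higher side it was led by IGF2, followed by ABCG1 (1.496 ± 0.10), a sterol exporter, and APOE (1.29 ± 0.09), a lipid carrier. ENC1, an actin-binding protein of neurons, stood at 26.2, 17.9 and 27.5 CPM in the scramble, shRNA-B and shRNA-D libraries numbered 1 against 8.11, 10.3 and 11.1 CPM (lowest, median, highest) in the others (1.27 ± 0.07). CLU, a secreted chaperone, stood at 33.7, 24.1 and 37.8 CPM against 9.61, 13.4 and 15.8 CPM (1.26 ± 0.08). MAP1A, a microtubule protein, stood at 39.6, 37.8 and 55.3 CPM against 14.6, 18.7 and 20.8 CPM (1.25 ± 0.09). None of these 3 genes overlapped between the numbers, as held for 10.3% of all genes on the higher side. The ranking took only called genes with the number 1 library beyond both others in every hairpin group. That rule favours such separation, so it is no added result. BAMBI, a decoy receptor of BMP and TGF-beta signalling (1.18 ± 0.08), the homeobox factor MSX2 (1.17 ± 0.07), the protocadherin PCDH17 (1.14 ± 0.09), the zinc finger repressor ZBTB16 (1.10 ± 0.09) and the histone genes H2BC11 (1.17 ± 0.11) and H2BC5 (1.13 ± 0.11) completed the 12.

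Genes that HIF controls were much lower in the number 1 libraries. Of 38 tested HIF target genes, 33 were lower and 0 higher, with a list median log2 difference of -0.96 against 0.02 over all genes, where 12% were lower. In 31 of the 38, the 3 number 1 libraries all lay below the 6 others, against 9.84% of all genes, and in 0 they all lay above, against 10.3%. Summed over the list, the level was 1697 to 1894 CPM in the number 1 libraries and 3627 to 4280.0 CPM in the others. Between numbers 2 and 3 the median of the same list was 0.08 and 0 members were called. The 5 members that were not called were RORA (-0.55 ± 0.24), CA9 (-0.83 ± 0.44), KDM4B (-0.16 ± 0.09), VLDLR (-0.09 ± 0.07) and JMJD6 (-0.04 ± 0.07). CA9, a carbonic anhydrase often used as a hypoxia marker, lay below 1 CPM in all 9 libraries, and the listed gene ANGPTL4 had too few counts to be tested.

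**Figure D1:**
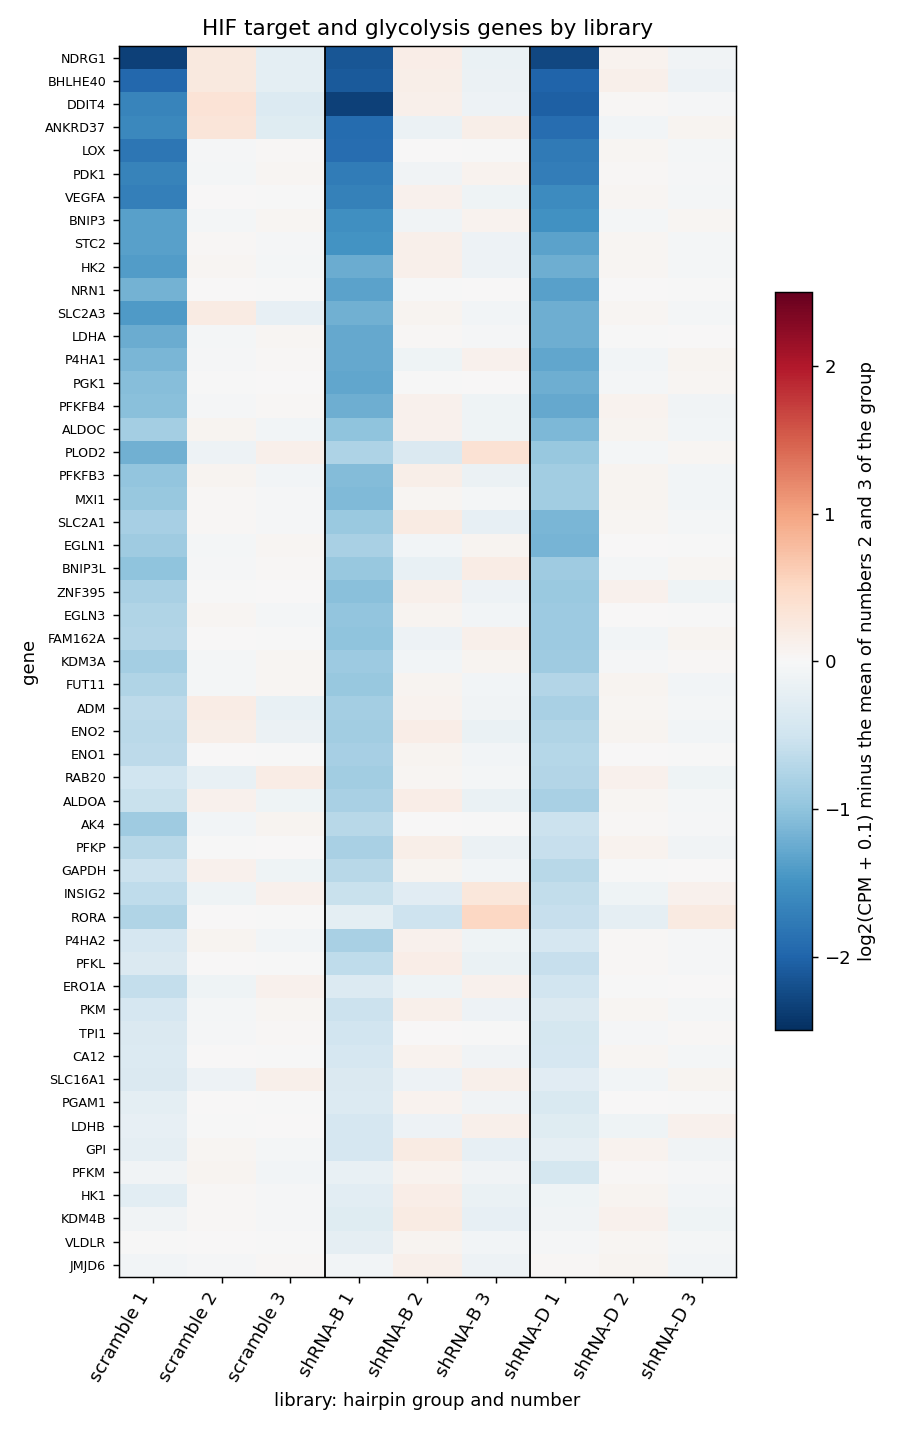
Level of 53 HIF target and glycolysis genes that averaged 1 CPM or more (rows) in the 9 libraries (columns, by hairpin group and number), as log2(CPM + 0.1) minus the mean of numbers 2 and 3 of the same hairpin group. The 3 number 1 columns are blue for most rows, from NDRG1 (-2.26) and BHLHE40 (-2.03) at the top to JMJD6 (-0.04) at the bottom, while the number 2 and 3 columns are mostly pale.

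The 3 HIF targets among the marker genes given for this comparison were each lower by about 3-fold or more. They were picked with earlier results of these data known, so their values are a description. NDRG1, a stress-responsive gene of cell differentiation, stood at 22.9, 39.5 and 29.5 CPM in the scramble, shRNA-B and shRNA-D libraries numbered 1, against a lowest, median and highest value of 98.1, 145 and 195 CPM in the 6 others. BHLHE40, a transcriptional repressor that also acts on the circadian clock, stood at 36.3, 39.1 and 34.2 CPM against 119, 150.2 and 185 CPM. PDK1, the kinase that shuts pyruvate out of the mitochondrial citric acid cycle, stood at 51.2, 42.2 and 43.7 CPM against 133, 149 and 169 CPM. For all 3 genes the highest number 1 library lay below the lowest of the others, and the differences were -2.26 ± 0.13, -2.03 ± 0.13 and -1.71 ± 0.07 (log2 ± SE). Within the hairpin groups, PDK1 differed by -1.67 (scramble), -1.75 (shRNA-B) and -1.73 (shRNA-D).

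**Figure D2:**
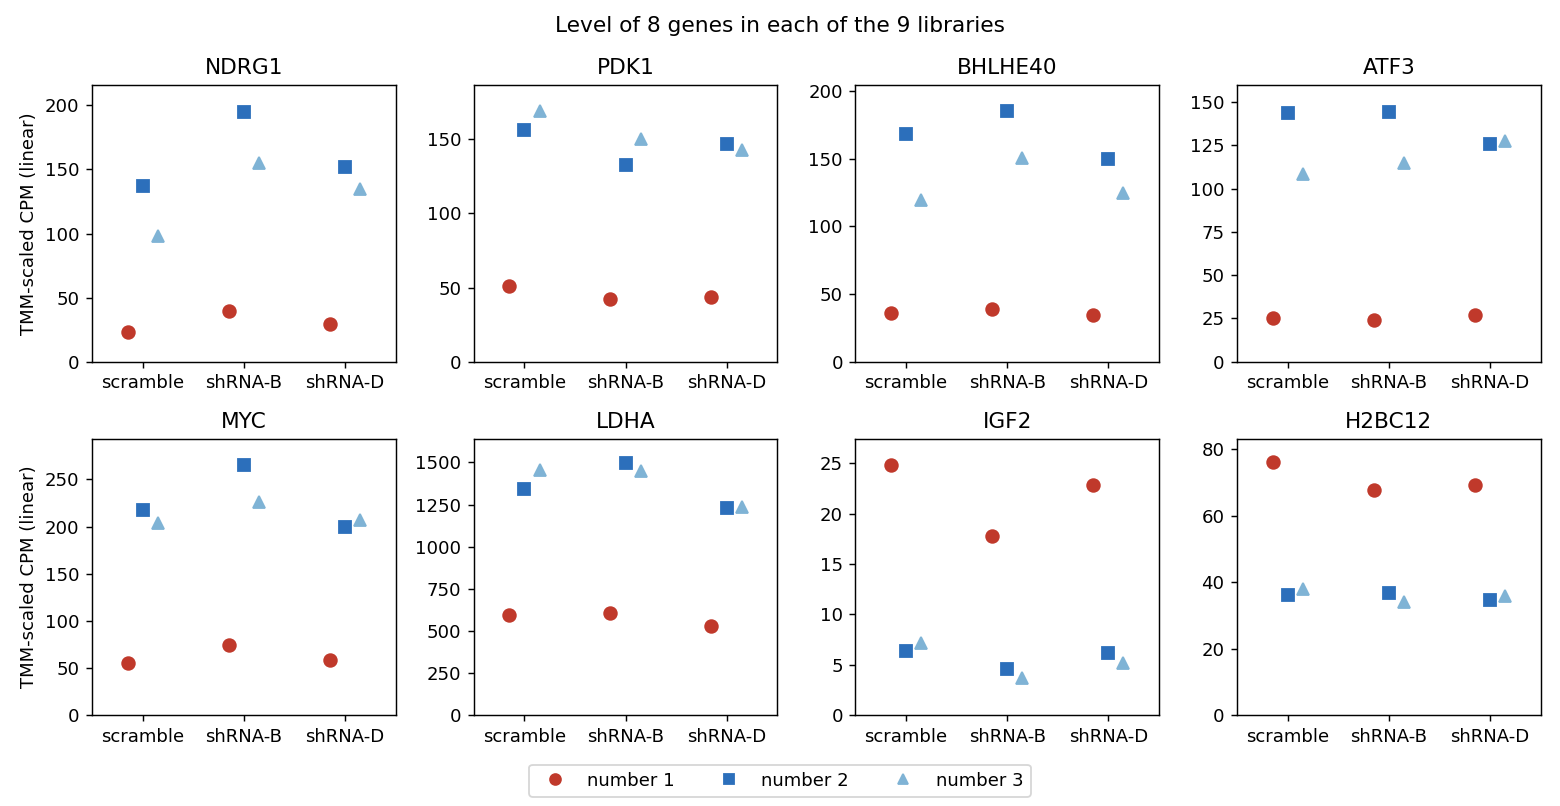
TMM-scaled CPM (linear axes from 0) of 8 genes in each of the 9 libraries, by hairpin group, with circles for number 1, squares for number 2 and triangles for number 3. In each of the 3 hairpin groups the number 1 library is the lowest for NDRG1, PDK1, BHLHE40, ATF3, MYC and LDHA, and the highest for IGF2 and H2BC12.

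Short promoter stretches are shown for 7 of the lower genes, to let the HIF core letters be read beside the values. Each is 29 bases from RefSeq (GRCh38.p14), 5′ to 3′ on the gene's own strand and upstream of the start, with ACGTG in capitals.
LDHA promoter, chr11:18394367-18394395, plus strand: gactcccagcgcACGTGgagcagtctgcc
PGK1 promoter, chrX:78104034-78104062, plus strand: gcggcgtgccggACGTGacaaacggaagc
BNIP3 promoter, chr10:131982040-131982068, minus strand: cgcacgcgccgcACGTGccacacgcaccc
ANKRD37 promoter, chr4:185396686-185396714, plus strand: cagtgtttgtgtACGTGcggccgtggcgg
BHLHE40 promoter, chr3:4979251-4979279, plus strand: ggcagtggccagACGTGcctggagtcaca
DDIT4 promoter, chr10:72273787-72273815, plus strand: agaacgttgcttACGTGcgcccggagtcc
LOX promoter, chr5:122078428-122078456, minus strand: gctccctgtgcaACGTGtctggggggagg
Among the lower HIF targets, 26 had a promoter in the RefSeq table (250 bases before to 50 after the start), and 14 of these (53.8%) held ACGTG on either strand, counting the palindrome CACGTG once per promoter. Of all 30 tested HIF targets with a promoter, 16 (53.3%) held ACGTG, and of all genes called lower 28% did. Of all genes called higher 23.3% held it. The 26 lower targets make up most of the 30, so these shares cannot tell membership of the list from being lower. The other core, GCGTG, was held by 16 of the 26 (61.5%), and either core by 21 (80.8%). Of the 17 lower glycolysis genes with a promoter, 8 (47.1%) held ACGTG and 9 (52.9%) GCGTG. Over 14397 promoters of tested genes the shares were 25.3% for ACGTG, 47.6% for GCGTG and 59.9% for either, and over all 27305 promoters they were 21.6%, 36.3% and 48.4%. A match is a description of the letters and does not show that HIF binds there.

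The other HIF targets fell across several roles. VEGFA, the main growth factor of new vessels, stood at 36.6, 40.5 and 39.4 CPM in the number 1 libraries against 115, 121 and 141 CPM (lowest, median, highest) in the others, a difference of -1.66 ± 0.08. LOX, which crosslinks collagen, stood at 15.4, 11.6 and 14.5 CPM against 43.7, 49.3 and 55.2 CPM (-1.83 ± 0.07). BNIP3, a mitochondrial protein that directs mitophagy, stood at 81.05, 84.4 and 63.6 CPM against 175, 209 and 257 CPM (-1.47 ± 0.08). None of these 3 genes overlapped between the numbers, as held for 9.84% of all genes on the lower side and 10.3% on the higher. Genes named here and below as not overlapping were picked by a small p or after their values were seen. That favours such separation, so it is no added result. ANKRD37 (-1.88 ± 0.15), the collagen prolyl hydroxylase P4HA1 (-1.24 ± 0.08), the MYC antagonist MXI1 (-0.98 ± 0.07) and the histone demethylase KDM3A (-0.88 ± 0.07) were also lower. DDIT4, an inhibitor of mTORC1 that both HIF and ATF4 can raise, stood at 91.8, 75.7 and 68.6 CPM against 229.8, 318 and 415 CPM (-2.01 ± 0.19). HILPDA, which blocks lipid breakdown in droplets and was listed here with fatty acid genes, stood at 27.5, 32.1 and 22.5 CPM against 72.2, 91.03 and 121 CPM (-1.79 ± 0.10).

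The oxygen-sensing machinery itself did not move as 1 group. Of 12 tested genes 3 were higher (25%, against 10.9% of all genes) and 3 lower (25%, against 12%), with a median of 0.12. HIF1A, the regulated subunit, held 160.0 against 138 CPM on average and was not called (0.22 ± 0.22, adjusted p = 0.54, Benjamini-Hochberg, edgeR), and its partner ARNT was not called either (-0.10 ± 0.07). EPAS1, which encodes HIF-2 alpha, stood at 34.05, 31.8 and 32.8 CPM against 19.6, 23.4 and 23.9 CPM and was higher (0.56 ± 0.08). HIF1AN, the asparaginyl hydroxylase that blocks HIF activity, was higher (0.40 ± 0.07), and VHL was lower (-0.45 ± 0.08). The prolyl hydroxylase genes EGLN1 (-0.96 ± 0.08) and EGLN3 (-0.89 ± 0.08), themselves HIF targets and counted in that list, were lower. The count of higher machinery genes was 5 without shRNA-B library 2, and 5 with upper-quartile scaling, library totals alone or a minimum mean of 1 CPM. HIF activity is set mainly by protein stability, which these data do not measure.

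Glycolysis genes fell nearly as a whole. Of 20 tested genes 18 were lower (90%, against 12% of all genes) and 0 higher (against 10.9%), with a median of -0.58. The lower count was 13 to 19 over the alternatives. The summed level was 9993 to 10725 CPM in the number 1 libraries and 15450.0 to 17719 CPM in the others. At the entry to the pathway, the glucose transporter SLC2A1 (-0.96 ± 0.10) and the hexokinase HK2 (-1.30 ± 0.08) were lower. In the middle, ALDOA stood at 816, 722 and 656 CPM against 1107, 1156 and 1417 CPM (-0.72 ± 0.09). PGK1, which makes the first ATP of the pathway, stood at 548, 529 and 524 CPM against 1143, 1218 and 1316 CPM (-1.19 ± 0.07). LDHA, which turns pyruvate into lactate, stood at 594, 608 and 529 CPM against 1231, 1396 and 1497 CPM (-1.24 ± 0.07). In each of these 3 genes all number 1 libraries lay below all others, as held for 9.84% of all genes. The members that were not called were HK1 (-0.22 ± 0.08) and the lactate exporter SLC16A3 (-0.16 ± 0.37), the latter below 1 CPM. An identifier without a symbol carried nearly the same values as LDHA, and ALDOA, PGK1, GAPDH and LDHA have processed copies in the genome, so the split of their estimated counts is uncertain. Of 14 genes of the pyruvate dehydrogenase complex and its control, 3 were lower (21.4%, against 12% of all genes) and 2 higher (14.3%, against 10.9%). The lower share lay near the 22.6% of all tested genes averaging 20 to 100 CPM. Apart from PDK1 no called member differed by more than 1.5-fold. The 2 higher calls were lost when any library other than shRNA-B library 2 was left out, the lower count was 1 without shRNA-D library 1 and 5 without shRNA-B library 2, and the list median (-0.10) ran from -0.12 to 0.01 over the scalings.

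IGF2, a fetal growth factor and the fourth marker, went the other way: it stood at 24.8, 17.8 and 22.8 CPM in the number 1 libraries against 3.65, 5.695 and 7.19 CPM in the others, with no overlap (1.99 ± 0.09). Its choice as a marker used these data, so this is a description. The insulin-like growth factor axis was mixed, with 3 of 19 tested genes higher (15.8%, against 10.9% of all genes) and 6 lower (31.6%, against 12%). Its median was -0.06 (-0.08 to 0.06 over the scalings). IGFBP3, a secreted binding protein, was higher but under 1 CPM in all 9 libraries (0.647, 0.318 and 0.488 CPM against 0.0228, 0.0823 and 0.145 CPM, 2.70 ± 0.32). The adaptor IRS4, which HEK 293 cells carry at a high level, stood at 854, 1019 and 783 CPM against 1436, 1687 and 1959 CPM (-0.94 ± 0.10), and IRS1 was also lower (-0.62 ± 0.10). The receptor IGF1R (0.00 ± 0.08) and the RNA-binding proteins IGF2BP1 (0.02 ± 0.09) and IGF2BP3 (0.00 ± 0.09) were not called.

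Genes of the integrated stress response were lower alongside the HIF targets. Of 32 tested members 27 were lower (84.4%, against 12% of all genes) and 1 higher (3.125%, against 10.9%), with a median of -0.73. The lower count was 18 to 27 over the alternatives. The summed level was 2494 to 2746 CPM in the number 1 libraries and 4176 to 5064 CPM in the others. STC2, DDIT4 and VLDLR stand in this list and in the HIF list. ATF3 is counted in the immediate early list too, and GDF15 in the p53 list. PDK1 is counted in both the HIF and the pyruvate dehydrogenase list. The lists thus repeat some genes, and their counts are not separate results. ATF3, a stress-induced repressor, stood at 25.1, 24.2 and 27.1 CPM in the number 1 libraries against 109, 127 and 145 CPM in the others, the lowest log2 difference among the genes ranked for this comparison (-2.33 ± 0.11, adjusted p = 2.3e-07, Benjamini-Hochberg, edgeR). ATF4 mRNA stood at 384, 414 and 419 CPM against 666, 701 and 800.1 CPM (-0.83 ± 0.07). Amino acid synthesis genes were lower: ASNS, the asparagine synthetase, stood at 115, 112 and 122 CPM against 232, 279 and 303 CPM (-1.23 ± 0.09). No value of these 3 genes overlapped between the numbers, as held for 9.84% of all genes on the lower side. CTH (-1.46 ± 0.08), PSAT1 (-0.96 ± 0.11), the folate enzymes MTHFD2 (-0.77 ± 0.06) and ALDH1L2 (-1.12 ± 0.09), and the feedback genes TRIB3 (-1.30 ± 0.14) and CHAC1 (-1.21 ± 0.16) were lower as well. The exception was GDF15, a secreted stress cytokine that p53 also raises, which was higher at 1.85, 1.23 and 1.998 CPM against 0.423, 0.711 and 0.831 CPM (1.36 ± 0.20).

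Endoplasmic reticulum stress genes showed a smaller fall. Of 23 tested genes of the unfolded protein response 14 were lower (60.9%, against 12% of all genes) and 2 higher (8.70%, against 10.9%). Their median was -0.26. The chaperone HSPA5 stood at 573, 612 and 594 CPM against 952, 1062 and 1275 CPM (-0.88 ± 0.09), and HERPUD1, a factor of protein degradation at the reticulum, at 40.3, 46.3 and 39.8 CPM against 92.6, 107 and 137 CPM (-1.39 ± 0.09). Both were below the others in all 3 number 1 libraries. XBP1 (-0.88 ± 0.07), EDEM1 (-0.69 ± 0.08) and DNAJB9 (-0.79 ± 0.10) were lower, while PDIA3 (0.03 ± 0.07) and MANF (-0.09 ± 0.07) were not called. The lower count was 8 without scramble library 1, 9 without shRNA-B library 1 or shRNA-D library 1, 9 with upper-quartile scaling and 8 with library totals alone, and the 2 higher calls were lost without any library other than shRNA-B library 2. Cytosolic heat shock genes did not follow: 5 of 20 were higher (25%) and 1 lower (5%), with a median of 0.09. HSPA8 stood at 2176, 2309.7 and 2089 CPM against 1276, 1577 and 1792 CPM (0.49 ± 0.08), and DNAJB1 was higher (0.44 ± 0.07). HSPA1A (0.10 ± 0.24) and HSP90AA1 (0.08 ± 0.15) were not called, and the higher count was 3 without shRNA-B library 1 or shRNA-D library 1 and 8 with library totals alone.

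**Figure D3:**
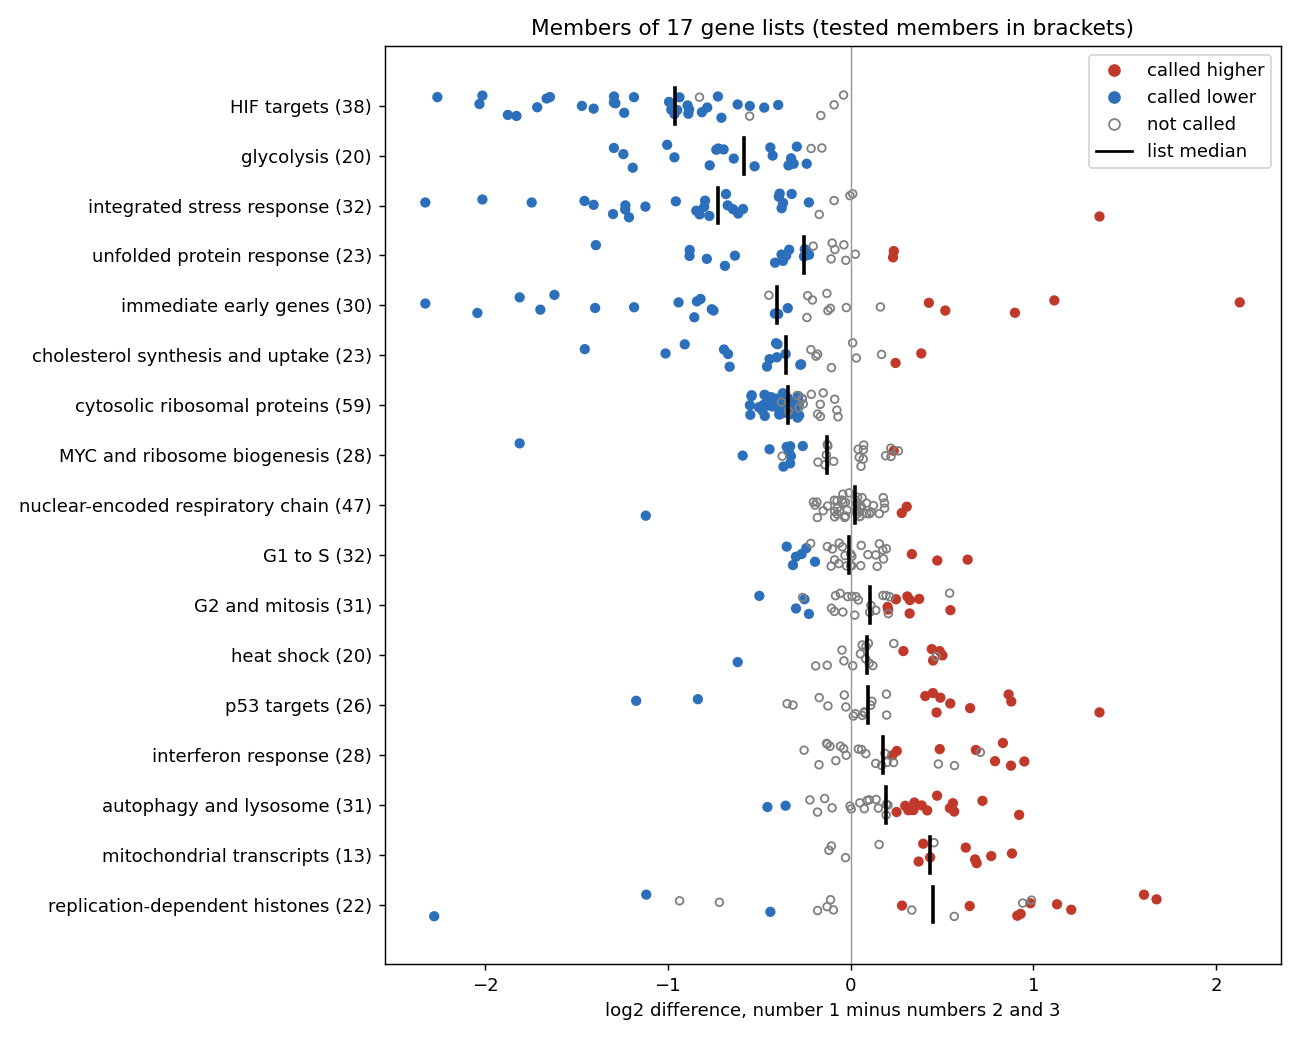
Log2 difference of number 1 minus numbers 2 and 3 for the tested members of 17 gene lists, with filled points for called genes, open points for genes not called and a black bar for the list median. The medians run from -0.96 for HIF targets at the top to 0.45 for replication-dependent histones at the bottom, and the nuclear-encoded respiratory chain sits at 0.03.

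Immediate early genes were lower in the main, with 5 exceptions. Of 30 tested genes 16 were lower (53.3%, against 12% of all genes) and 5 higher (16.7%, against 10.9%), with a median of -0.41. The summed level was 926 to 995 CPM in the number 1 libraries and 1624 to 1824 CPM in the others. MYC, the growth-promoting transcription factor, stood at 55.9, 74.2 and 58.7 CPM against 199.8, 212 and 266 CPM (-1.81 ± 0.08). FOS stood at 9.46, 7.198 and 11.7 CPM against 31.6, 39.4 and 41.9 CPM (-2.04 ± 0.10), and JUN, its partner in AP-1, at 174, 111 and 178 CPM against 351, 400.5 and 448 CPM (-1.40 ± 0.13). All 3 were without overlap, as held for 9.84% of all genes on the lower side. EGR1 (-1.62 ± 0.11), FOSB (-1.70 ± 0.13), KLF10 (-1.18 ± 0.09) and the phosphatase DUSP1 (-0.94 ± 0.08) were lower too. In the other direction, ID3, a BMP-responsive inhibitor of differentiation factors, stood at 23.9, 20.04 and 22.5 CPM against 10.7, 12.01 and 12.6 CPM (0.90 ± 0.07), and SPRY4, a feedback inhibitor of ERK signalling, was higher at under 2 CPM (2.13 ± 0.34). The number of higher genes was 3 when a mean of at least 1 CPM was required.

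Genes of the protein synthesis apparatus were modestly lower. The summed level of 59 tested cytosolic ribosomal protein genes was 42876 to 47347 CPM in the number 1 libraries and 51641 to 62830.0 CPM in the others. Of these genes 44 were lower (74.6%, against 12% of all genes) and 0 higher (against 10.9%), over a narrow range with a median of -0.34. This count rested on single libraries and on the scaling: it was 15 without shRNA-B library 1, 16 without shRNA-D library 1, 13 without the shRNA-D group, 24 without the shRNA-B group, 27 with upper-quartile scaling and 24 with library totals alone. Many ribosomal protein genes have processed copies, so their estimated counts are uncertain. Among 28 genes of MYC and ribosome biogenesis 10 were lower (35.7%) and 1 higher (3.57%), with a median of -0.13. Apart from MYC, the lower members changed little, as with the nucleolar GTPase GNL3 (-0.59 ± 0.10), while NOP58 (-0.18 ± 0.13) and ODC1 (-0.14 ± 0.07) were not called. The higher count was 4 without shRNA-B library 2 and with both other scalings, and the lower count was 6 without the scramble or the shRNA-D group.

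Sterol genes were lower as well. Of 23 tested genes of cholesterol synthesis and uptake 14 were lower (60.9%, against 12% of all genes) and 2 higher (8.70%, against 10.9%). Their median was -0.36, and 8 were lower without the shRNA-D group. INSIG1, which holds the sterol sensor in the reticulum, stood at 99.9, 114 and 86.3 CPM against 249, 260.3 and 314 CPM (-1.45 ± 0.07). HMGCS1, an early enzyme of the pathway, stood at 88.98, 96.4 and 89.9 CPM against 161, 185 and 218 CPM (-1.01 ± 0.10). Neither gene overlapped between the numbers, as held for 9.84% of all genes on the lower side. SQLE (-0.69 ± 0.07), IDI1 (-0.91 ± 0.13) and MSMO1 (-0.67 ± 0.08) were lower. In fatty acid synthesis and storage 7 of 22 were lower (31.8%, against 12% of all genes) and 3 higher (13.6%, against 10.9%). The median was -0.14, and 5 were higher without shRNA-B library 2. SCD, the main desaturase, stood at 768, 944 and 649.6 CPM against 1062, 1353 and 1601 CPM (-0.73 ± 0.07), while FASN (-0.05 ± 0.10) and ACLY (0.00 ± 0.08) were not called.

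**Figure D4:**
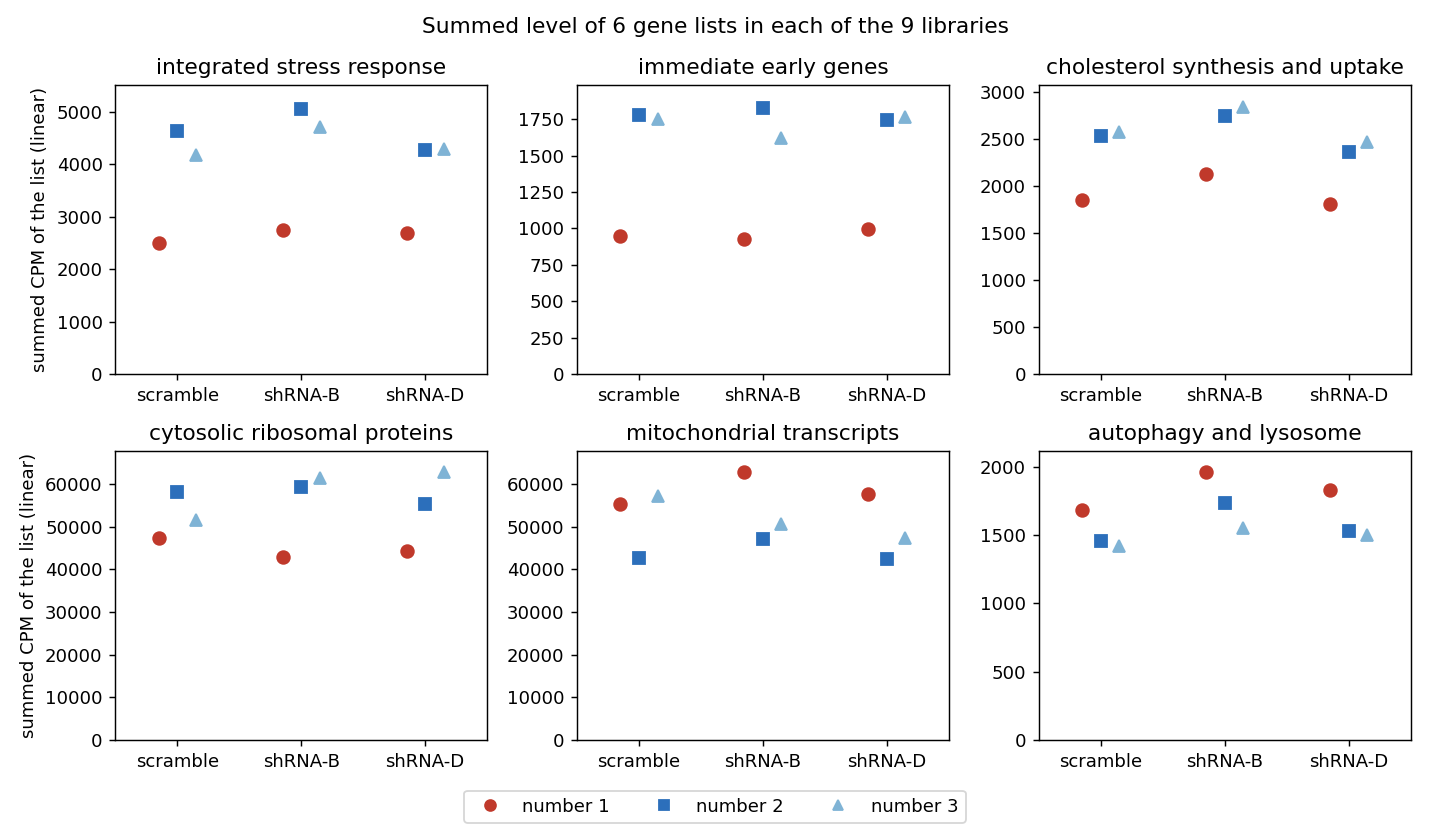
Summed TMM-scaled CPM (linear axes from 0) of the tested members of 6 gene lists in each of the 9 libraries, by hairpin group, with circles for number 1, squares for number 2 and triangles for number 3. The number 1 libraries are the lowest of their hairpin group for the integrated stress response, immediate early, cholesterol and ribosomal protein genes and the highest for the lysosome genes, whereas for mitochondrial transcripts the scramble library numbered 3 lies above the one numbered 1.

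Mitochondrial genes differed by the genome that encodes them. Of 13 transcripts of the mitochondrial genome 8 were higher (61.5%, against 10.9% of all genes) and 0 lower (against 12%), with a median of 0.43. The higher count was 5 without shRNA-D library 1 and 3 without the shRNA-D group. MT-CYB, the cytochrome b subunit of complex III, stood at 5089, 5569 and 5448 CPM against 2589, 2760.2 and 3921 CPM (0.88 ± 0.12), and MT-ATP6 of the ATP synthase at 3874, 4317 and 4047 CPM against 2037, 2360.3 and 2917 CPM (0.77 ± 0.09). Neither overlapped, as held for 10.3% of all genes on the higher side, but MT-CO1 (-0.12 ± 0.08) and MT-ND1 (-0.03 ± 0.14) were not called. The median of the same 13 transcripts between numbers 2 and 3 was -0.26. The nuclear-encoded subunits of the respiratory chain had few calls: 2 of 47 were higher (4.26%) and 1 lower (2.13%), with a median of 0.03. The lower one was NDUFA4L2, a subunit-like protein that HIF raises, at under 1 CPM (-1.12 ± 0.22). Without scramble library 1 or shRNA-D library 1 there were 0 higher, without scramble or shRNA-B library 3 there were 3 lower, and the higher count was 5 with upper-quartile scaling and 6 with library totals alone.

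Replication-dependent histone genes, whose normal transcripts lack a poly(A) tail and are therefore poorly captured by poly(A) selection, were more often higher. Of 22 tested genes 9 were higher (40.9%, against 10.9% of all genes) and 3 lower (13.6%, against 12%), with a median of 0.45. The summed level did not follow the counts: it was 359.5 to 432 CPM in the number 1 libraries and 393 to 489.5 CPM in the others. H2BC12 stood at 76.1, 67.6 and 69.2 CPM against 34.2, 35.99 and 37.8 CPM (0.98 ± 0.06), and H2AC6 at 8.88, 8.48 and 7.56 CPM against 1.84, 2.95 and 3.302 CPM (1.60 ± 0.16), both without overlap. H2BC4 (1.67 ± 0.14) and H3C10 (1.21 ± 0.11) were higher, whereas H4C3 (-1.12 ± 0.13) and the linker histone H1-4 were lower. H1-4 had the list's greatest change, at 0.348, 0.554 and 1.24 CPM against 1.67, 3.19 and 4.58 CPM (-2.28 ± 0.53), but its call was lost under 11 alternatives, among them leaving out scramble library 1, any 1 of the shRNA-B libraries or shRNA-D library 3. Histone genes are near copies of each other, so the share of counts that each received is uncertain.

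The cell cycle lists changed in both directions. In the G1 to S list 3 of 32 genes were higher (9.38%, against 10.9% of all genes) and 6 lower (18.8%, against 12%). The list median was -0.01 (-0.03 to 0.10 over the scalings). Of all tested genes averaging 20 to 100 CPM 22.6% were lower, and of those at 100 CPM and over 24.8%, so 18.8% is below both. CCND1, the growth-factor-dependent cyclin D1, stood at 43.6, 29.5 and 36.5 CPM against 20.1, 22.4 and 27.5 CPM (0.64 ± 0.08), and CCND3 was also higher (0.47 ± 0.09), while PCNA (-0.06 ± 0.06), MCM2 (0.00 ± 0.08) and E2F1 (-0.02 ± 0.08) were not called. The lower count was 3, 2 and 3 without the scramble, shRNA-B and shRNA-D libraries numbered 1 and 0 with library totals alone, and the higher count was 7 without shRNA-B library 2. In the G2 and mitosis list 8 of 31 were higher (25.8%) and 4 lower (12.9%; median 0.10), with CDC25B, an activator of mitotic entry, higher (0.55 ± 0.09), CKS1B lower (-0.50 ± 0.07) and MKI67, the common proliferation marker, not called (0.10 ± 0.09). The higher count was 4, 3 and 3 and the lower count 2, 1 and 1 without those same 3 libraries in turn, and 1 was lower with either other scaling.

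Growth arrest and p53 target genes gave a mixed picture. Of 26 tested p53 targets 9 were higher (34.6%, against 10.9% of all genes) and 2 lower (7.69%, against 12%), with a median of 0.09. CDKN1A, the cell cycle inhibitor p21, stood at 75.7, 57.4 and 69.7 CPM against 32.05, 44.1 and 51.2 CPM (0.65 ± 0.08), and TP53INP1 at 33.98, 24.2 and 30.2 CPM against 12.2, 17.7 and 19.3 CPM (0.86 ± 0.07). Both were without overlap, as held for 10.3% of all genes on the higher side. TP53I3 (0.88 ± 0.08), BTG2 (0.54 ± 0.07) and the death effector BAX (0.47 ± 0.07) were also higher. MDM2 (0.07 ± 0.08), a direct target of p53, was not called, and GADD45A (-1.17 ± 0.09) and PMAIP1 (-0.84 ± 0.12), which ATF4 can also raise, were lower. The T antigen of this line binds p53, so the list's name is not a measure of p53 activity here. Of 21 growth arrest genes 6 were higher (28.6%) and 5 lower (23.8%), with a median of 0.01 (-0.00 to 0.12 over the scalings). CDKN2C was higher (0.46 ± 0.07), BTG1 (-0.63 ± 0.07) and KLF9 (-1.12 ± 0.08) were lower, and CDKN1B was not called (-0.02 ± 0.07).

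Lysosome and autophagy genes, to which the targeted gene SIDT2 belongs by location, were more often higher than lower. Of 31 tested genes 14 were higher (45.2%, against 10.9% of all genes) and 2 lower (6.45%, against 12%). Their median was 0.20, and 7 were higher without the shRNA-D group. CTSD, an aspartic protease, stood at 107, 113 and 104 CPM against 66.2, 70.3 and 90.9 CPM (0.56 ± 0.08), with no overlap. ATP6V0D1 of the proton pump (0.72 ± 0.08), HEXA (0.42 ± 0.07) and the autophagy receptor SQSTM1 (0.39 ± 0.07) were higher, GABARAPL1 was lower (-0.46 ± 0.07), and LAMP2 (0.00 ± 0.07) and the regulator TFEB (-0.22 ± 0.17) were not called. Among 28 tested interferon response genes 8 were higher (28.6%), 0 lower and 20 not called, with a median of 0.18. The summed level was 958.5 to 966.2 CPM in the number 1 libraries and 894.7 to 958.6 CPM in the others, with a slight overlap. IFI6 stood at 8.77, 8.71 and 10.5 CPM against 4.03, 5.21 and 5.67 CPM (0.88 ± 0.09) and IFITM2 was higher (0.79 ± 0.10), while ISG15 (-0.13 ± 0.15) and IFIT1 (0.06 ± 0.11) were not called. The higher count was 5 without any 1 of the 3 number 1 libraries, without scramble library 2, or without scramble or shRNA-D library 3, and it was 13 with upper-quartile scaling and 14 with library totals alone.

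The remaining lists moved in both directions. Over all tested genes 10.9% were higher and 12% lower. Higher members made up 10.5% of the circadian, 10.5% of the glucose and amino acid sensing and 10% of the NRF2 list. For SRF and actin genes the share was 13.3%, for NF-kB targets 14.3% and for metallothionein and zinc genes 11.1%. These higher counts thus lay near the share of all genes. Of 19 circadian genes 7 were lower and 2 higher (median -0.09, -0.10 to 0.02 over the scalings). They were led by the repressors BHLHE40, BHLHE41 (-1.11 ± 0.09) and NFIL3 (-0.89 ± 0.09), while BMAL1 (-0.08 ± 0.10) and PER1 (-0.09 ± 0.09) were not called. The 2 higher circadian calls were lost without any of shRNA-B library 1 or 3 or shRNA-D library 1, 2 or 3. Of 19 genes of glucose and amino acid sensing 6 were lower and 2 higher (median -0.07, -0.08 to 0.04 over the scalings). ARRDC4, a glucose-responsive arrestin, stood at 34.7, 32.9 and 27.1 CPM against 48.7, 56.1 and 56.8 CPM (-0.78 ± 0.07), but its relative TXNIP was not called (-0.05 ± 0.10). Of 20 NRF2 targets 7 were lower and 2 higher (median -0.02, -0.03 to 0.09 over the scalings), with NQO1 higher (0.46 ± 0.08) and HMOX1 not called (0.03 ± 0.10). The lower NRF2 count was 3 without any 1 number 1 library or with either other scaling, and the higher count was 5 without shRNA-B library 2 and 4 with either other scaling.

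Of 20 YAP and TEAD targets 6 were lower and 1 higher (median -0.22), with CCN1, a secreted matrix protein, at 16.5, 15.5 and 22.3 CPM against 28.8, 32.1 and 45.1 CPM (-0.96 ± 0.07) and CCN2 not called (-0.29 ± 0.12). That lower count was 2, 2 and 1 without the scramble, shRNA-B and shRNA-D libraries numbered 1, 3 without scramble library 2, and 2 and 1 with upper-quartile scaling and library totals alone. Of 15 SRF and actin genes 4 were lower and 2 higher (median -0.00, -0.02 to 0.11 over the scalings; 5 higher without shRNA-B library 2 or with either other scaling), with TPM2 (-0.58 ± 0.10) and FHL2 (-0.47 ± 0.08) lower and ACTB not called (0.18 ± 0.08). Of 14 NF-kB targets 6 were lower and 2 higher (median -0.28), with TNFAIP3, a feedback inhibitor of the pathway, at 4.34, 4.33 and 4.15 CPM against 7.48, 8.87 and 9.95 CPM (-1.05 ± 0.10). The NF-kB counts were 0 higher without scramble library 1, and 3 lower without shRNA-D library 1 or with either other scaling. Of 9 metallothionein and zinc genes 1 was higher, the sensor MTF1 (0.49 ± 0.08), and 1 lower, and MT2A was not called (0.31 ± 0.11).

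Markers of other cell types were listed to see whether such cells moved with the number. In bulk RNA a change in the share of cells of a type and a change in RNA per cell cannot be told apart. Of 9 tested fibroblast markers 4 were higher (44.4%, against 10.9% of all genes) and 0 lower (against 12%). Their median log2 difference was 0.9988 against 0.02 over all genes. It ran from 0.377 to 1.105 over the scalings and with libraries or hairpin groups left out. The higher count was 2 to 5 over the alternatives. PDGFRA, a growth factor receptor of mesenchymal cells, stood at 3.97, 2.43 and 3.94 CPM against 0.982, 1.77 and 1.92 CPM (1.11 ± 0.12), and LUM (1.65 ± 0.23) and POSTN (1.76 ± 0.32) were higher at under 1 CPM, all 3 without overlap. The sum of the list, most of it from FBN1 and COL1A1, was 33.3 to 57.7 CPM in the number 1 libraries and 26.6 to 46.2 CPM in the others, with overlap, and 6 of the 9 averaged under 1 CPM, among them DCN, LUM and COL1A2, while COL3A1 was at 0 in some libraries. Of 7 leukocyte markers 2 were higher (28.6%), and 0 to 2 over the alternatives. CD68, a lysosomal protein of macrophages that other cells can also make, stood at 1.05, 1.74 and 1.67 CPM against 0.0883, 0.135 and 0.204 CPM (3.38 ± 0.25), while PTPRC, the pan-leukocyte antigen, was at 0 to 0.2 CPM throughout. The leukocyte sum was 2.997 to 3.91 CPM in the number 1 libraries and 2.02 to 2.49 CPM in the others. Of 12 neuronal and adrenal markers, several of which HEK 293 cells are known to express, 5 were higher and 3 lower, and their sum was 125.5 to 138 CPM in the number 1 libraries and 164.5 to 180.4 CPM in the others. MAP2, a microtubule protein of dendrites, had the greatest change, at 3.56, 2.45 and 4.801 CPM against 0.3198, 0.9598 and 1.39 CPM with no overlap (2.02 ± 0.22). Neurofilament genes went in opposite directions: NEFM was lower (-1.81 ± 0.10), as was NEFL (-1.15 ± 0.08), and INA was higher (0.34 ± 0.08; not called without shRNA-B library 1 or shRNA-D library 1). Among 4 epithelial markers CDH1 was lower (-0.85 ± 0.09), 1 was higher, KRT8 was not called, and neither of 2 hepatocyte markers was called. Their part in the results was not tested.

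For nearly all genes no dependence of the number 1 difference on the hairpin was detected. A test of whether it depended on the hairpin called 7 of 29939 genes (0.0234%), with 451 at an unadjusted p under 0.05, and none of the HIF, glycolysis or stress response members was among them. That test has 3 residual degrees of freedom, so small dependences would not be seen, and a p that misses the threshold does not show that the groups were the same. NDRG1 differed by -2.36, -2.14 and -2.28 in the scramble, shRNA-B and shRNA-D groups, ATF3 by -2.33, -2.42 and -2.23, and IGF2 by 1.87, 2.11 and 2.00. In absolute terms the median log2 difference over all genes was 0.290 for number 1 against the others and 0.185 for number 2 against number 3.

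**Figure D5:**
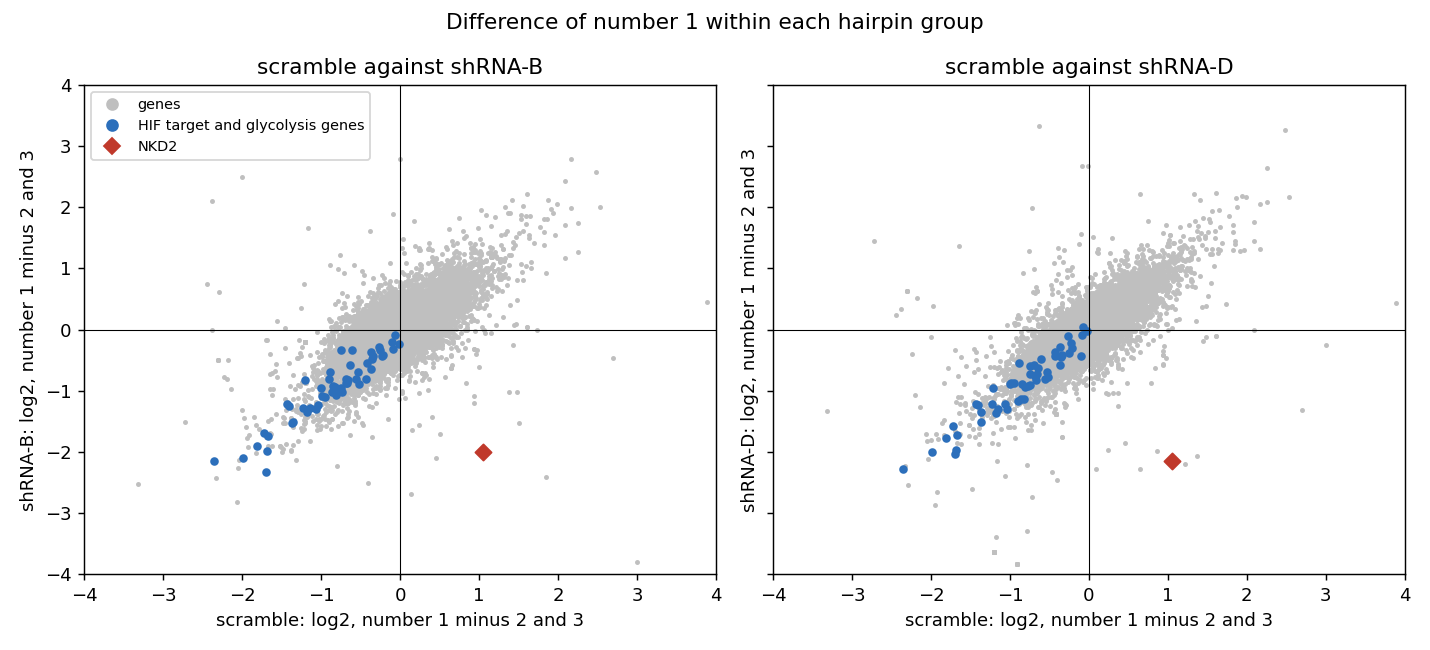
Log2 difference of number 1 minus numbers 2 and 3 within the scramble group (x axis) against the same within shRNA-B (left) and shRNA-D (right), for 15819 genes, of which 9 lie past the axis limits. HIF target and glycolysis genes (blue) lie mostly in the lower left, and NKD2 (red) is higher in number 1 within the scramble group and lower within both SIDT2 hairpin groups.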

How the data were processed

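Poly(A) RNA of HEK 293T cells was sequenced in 12 libraries, and 9 were used here: numbers 1, 2 and 3 of the scramble, shRNA-B and shRNA-D groups, read from the library titles and matched to table columns by the deposited names. The authors deposited estimated counts per gene, fractional and not scaled for depth, for 85298 Ensembl identifiers. The tools named, per the submitters' processing notes, are fastp and kallisto. No version, genome build or annotation is given in the sources used here. Estimated counts divide reads between transcripts that share sequence. A symbol was found for 60443 identifiers. The series' design text calls the libraries biological replicates without saying how cultures were kept apart.

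Estimated counts were rounded to whole numbers, scaled by TMM and filtered with filterByExpr, which left 29939 genes (25159 with a symbol). The model held hairpin group and number 1 against numbers 2 and 3, with 5 residual degrees of freedom, and was tested by robust quasi-likelihood F-tests (edgeR 4.0.16, R 4.3.3). Genes with an adjusted p under 0.05 (Benjamini-Hochberg, over all tested genes) were called. Differences are log2 with the SE of the fit, and CPM are TMM-scaled. Whether the difference depended on the hairpin was tested with an interaction term, and numbers 2 and 3 were compared in a model with 3 levels of number. The common biological coefficient of variation was 14.9% (13.1% with 3 levels). Totals of 68736977 to 95051040 limit only the lowest genes, and the chi-square per degree of freedom between libraries was 23.4 to 130, so no library repeats another.

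The members, the markers and the 34 gene lists (770 entries) were chosen with earlier results of these data known. Named genes were SIDT2, the 4 markers, up to 12 genes per direction averaging 5 CPM or more, ranked by fold change among those beyond both other libraries in all 3 hairpin groups, and up to 4 members per list with the smallest p. Other list members are named for their role, after their values were seen, and not every gene the rule gave is printed; a few are not reported here. Promoters came from RefSeq (GRCh38.p14) by symbol. Alternatives covered scaling (DESeq2 1.42.0 size factors, upper quartile, totals), the test (DESeq2, limma 3.58.1 voom), filters, the model and leaving out each library or hairpin group. For number 2 against number 3, and for list medians, these last were added after seeing the data. The tests were tried on simulated counts first.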

Additional observations from a re-analysis of the deposited data

Results flagged for a closer look

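The difference between number 1 and numbers 2 and 3 depended on the hairpin group for 7 genes in edgeR's interaction test with Benjamini-Hochberg adjustment. NKD2, an inhibitor of Wnt signalling, was the only one of them with a mean above 2 CPM both in the number 1 libraries and in the others (adjusted p = 0.049376). Its call was lost when only genes averaging 1 CPM or more were tested, where 0 genes were called (edgeR). It held 6.15 CPM in scramble library 1 against 3.42 and 2.53 in scramble libraries 2 and 3. In the shRNA-B group it held 1.55 CPM in number 1 against 6.85 and 5.503, and in the shRNA-D group 1.056 against 5.301 and 4.03. The number 1 library was thus the highest of the scramble group and the lowest of both SIDT2 hairpin groups.

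The other 6 lay below 7 CPM in every library. The identifiers ENSG00000274334, ENSG00000278788 and ENSG00000281234 had an adjusted p of 0.015254 each. ENSG00000278788 held 4.898 CPM in scramble library 1 and 0.451 in shRNA-B library 1, against 0.773 and 0.445 in scramble libraries 2 and 3 and 6.43 and 6.17 in shRNA-B libraries 2 and 3. LOH12CR2, HMGN2P5 and ENSG00000272101 had an adjusted p of 0.028923 each. HMGN2P5 and ENSG00000272101 carried the same values in all 9 libraries, so they count as 1 signal. LOH12CR2 was at 0 in shRNA-B library 1 and in scramble and shRNA-D libraries 2 and 3, where the deposited estimates can be failed ones. For 59 items, each a gene or a list sum, the 6 libraries numbered 2 or 3 were examined together with the hairpin groups pooled. For 0 of the items did 1 of these libraries stand far from the rest. The number 1 libraries were not examined in this way.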

How the results depend on the processing

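Of 385 named or called list genes, 375 were called, and 202 of these kept their call in every one of the 25 alternatives; 0 of the 375 changed direction. Leaving out each library in turn gave 3487 to 8835 calls (1516 to 4164 higher, 1971 to 4671 lower), with the lowest counts without shRNA-D library 1 (3487), shRNA-B library 1 (3799) and scramble library 1 (4173); these fits have fewer libraries. Without the scramble group 3665 genes were called (1366 higher, 2299 lower), and without the shRNA-D group 2600 (1152 higher, 1448 lower). With library totals alone 2054 genes were lower. The interaction gave 3 genes with DESeq2 size factors, 0 among genes averaging 1 CPM or more and 38 with DESeq2's likelihood ratio test, against 7 (451 at an unadjusted p under 0.05). Number 2 against number 3 gave 0 genes with DESeq2 size factors, 0 among genes averaging 1 CPM or more, and 0 to 386 when 1 library was left out, the highest without scramble library 2, against 2 (4263 unadjusted). Only SIDT2 and KRT8, neither called, reversed: SIDT2 to 0.003069 with upper-quartile scaling, 0.02834 with totals alone, 0.02624 without hairpin group in the model, 0.03267 against number 3 alone, 0.0664 without the shRNA-D group and -0.2496 to 0.07032 without 1 library, and KRT8 to 0.05871 with upper-quartile scaling, 0.08376 with totals alone, 0.027 among genes averaging 1 CPM or more, 0.03779 against number 3 alone, 0.03187 without the shRNA-B group and -0.08917 to 0.03243 without 1 library. The cause was not tested. Across the alternatives 30 to 34 HIF targets, 13 to 19 glycolysis genes and 18 to 27 integrated stress response genes were lower. Depth limits genes under 1 CPM, where 8.38% were higher and 2.36% lower, against 5.56% and 24.8% at 100 CPM and over. No paired analysis was possible because the replicate number is itself the term compared.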

Other observations

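Several gene families other than the lists above were picked after their values were seen, so their counts are a description. Some members, among them SPRY4, are also counted in the lists above. Over all tested genes 10.9% were higher and 12% lower. The 3 PEA3 factors, transcription factors that act downstream of FGF and ERK signalling, were all higher: ETV1 stood at 9.21, 7.19 and 8.88 CPM in the number 1 libraries of the scramble, shRNA-B and shRNA-D groups against 2.27, 2.71 and 3.98 CPM (lowest, median, highest) in the 6 others (1.55 ± 0.14), ETV4 differed by 1.46 ± 0.18 and ETV5 by 1.45 ± 0.22. Of 11 Sprouty, SPRED and dual-specificity phosphatase genes, which restrain ERK, 5 were higher, 1 lower and 5 not called, with a median of -0.02. The lower one was SPRY1, at 16.6, 19.7 and 16.3 CPM against 37.7, 42.6 and 55.7 CPM (-1.33 ± 0.08). Among the higher ones, SPRY4 and DUSP6 averaged 0.96 and 1.34 CPM in the number 1 libraries. The set leaves out DUSP1, which was lower in the immediate early list. Of 9 genes in a set of liver X receptors and their targets, 3 were higher and 0 lower. ABCG1 stood at 12.1, 10.6 and 13.5 CPM against 3.08, 4.13 and 5.705 CPM (1.496 ± 0.10), APOE at 17.3, 14.1 and 20.02 CPM against 5.801, 6.68 and 8.62 CPM (1.29 ± 0.09), and ABCA1 differed by 0.94 ± 0.11. The 6 not called were the receptors NR1H2 (0.17 ± 0.07) and NR1H3 (0.23 ± 0.10) and the targets SREBF1 (-0.21 ± 0.10), SMPDL3A (0.24 ± 0.12), LPCAT3 (0.07 ± 0.08) and MYLIP (0.01 ± 0.07).

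Of 18 cytosolic aminoacyl-tRNA synthetase genes 12 were lower and 1 higher, HARS1 (0.30 ± 0.06), with a median of -0.35. IARS1 stood at 244, 299 and 247 CPM against 339.9, 373 and 427 CPM (-0.51 ± 0.07). Of 27 snoRNA host genes 9 were lower and 4 higher, with SNHG1 at 162, 201 and 169 CPM against 271, 301 and 403 CPM (-0.81 ± 0.08) and SNHG15 lower (-0.85 ± 0.09). Among 38 HOX genes, which mark position along the body axis, 15 were higher and 2 lower. HOXA13 was the more changed of the lower pair, at 39.7, 40.4 and 35.8 CPM against 74.1, 94.3 and 107 CPM (-1.27 ± 0.09), while HOXB6 (0.57 ± 0.06) was higher.

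Of 13 genes of a class II set, usually made by antigen-presenting cells, 5 were higher and 0 lower, 4 of the 5 below 6 CPM in all 9 libraries. HLA-DRB1 stood at 5.396, 4.78 and 5.29 CPM against 1.35, 1.84 and 2.25 CPM (1.501 ± 0.13) and HLA-DRB5 at 2.22, 1.67 and 2.701 CPM against 0.191, 0.328 and 0.4198 CPM (2.78 ± 0.20). The 8 not called included HLA-DPA1 (1.47 ± 0.51) and HLA-DMB (0.36 ± 0.19). They also included CIITA (0.16 ± 0.19) and CD74 (-0.19 ± 0.45), which are in the set but are not HLA genes. The DRB genes are near copies of each other, and the leukocyte antigen PTPRC was at 0 to 0.2 CPM in the 9 libraries. By GENCODE class, of 5767 tested long noncoding genes 11.5% were higher and 4.27% lower, and of 15749 protein coding genes 12.6% were higher and 18.4% lower.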
